A study of Homo sapiens with 12 samples.

Results

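Metallothioneins and zinc handling genes were examined in HK-2, a line derived from the proximal tubule of a human kidney and immortalized for culture. The 10 genes were chosen by name: MT1E, MT1F, MT1G, MT1H, MT1M, MT1X and MT2A, which encode metallothioneins, and MTF1, SLC30A1 and SLC39A10, which sense or carry zinc. They are 10 of 19775 genes with at least 1 probe set of their own on the array, and 18 of its 54675 probe sets. All 10 were bright enough to be tested, among 10784 genes in all. There were 4 groups of 3 arrays: cells treated for 48 h with the agent that the labels call Fk, control cells at 48 h, cells treated with Fk for 12 h, and control cells at 12 h. Control cells received the vehicle alone. All cells grew in a medium with hydrocortisone, EGF, insulin, transferrin and selenite, and treatment began near confluence. The labels do not spell out Fk, and a dose was not used here. The arrays within a group are named biological replicates there, without word on how the cultures were kept apart, so p-values measure the spread between these cultures, part of which may be technical. The comparisons ask what Fk did to these genes at each time and how their levels differed between 48 h and 12 h.

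Metallothioneins are small, cysteine-rich proteins that bind zinc and copper, buffer free zinc and also bind cadmium. Their genes are switched on by the transcription factor MTF1, which senses zinc and binds metal response elements in their promoters, and glucocorticoids also induce some of them. SLC30A1 encodes ZnT1, which carries zinc out through the plasma membrane and is itself a target of MTF1, while SLC39A10 encodes ZIP10, which carries zinc into the cytosol. The renal proximal tubule is a main site where cadmium bound to metallothionein is taken up from the filtrate.

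The 7 metallothionein genes lie together on chromosome 16, in 75613 bases from 56608584 to 56684196 of the human build GRCh38.p14. MT2A is at one end (56608584 to 56609497) and MT1X at the other (56682470 to 56684196). MTF1 is on chromosome 1 at 37809574 to 37859592, SLC30A1 on chromosome 1 at 211571568 to 211579161, and SLC39A10 on chromosome 2 at 195613029 to 195737700.

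The promoters below are shown because metallothionein genes and SLC30A1, on which the results turn, are known targets of the zinc sensor. They hold the 250 bases before the annotated start, from RefSeq on GRCh38.p14, 5′ to 3′ on the strand of the gene. Capitals mark each match to the core of the metal response element, spelled TGCACNC or TGCGCNC, on either strand, and no matches overlapped. The windows are chr16:56608334-56608583 for MT2A, chr16:56682220-56682469 for MT1X and chr16:56669564-56669813 for MT1H, all on the plus strand, and chr1:211579162-211579411 on the minus strand for SLC30A1.
MT2A: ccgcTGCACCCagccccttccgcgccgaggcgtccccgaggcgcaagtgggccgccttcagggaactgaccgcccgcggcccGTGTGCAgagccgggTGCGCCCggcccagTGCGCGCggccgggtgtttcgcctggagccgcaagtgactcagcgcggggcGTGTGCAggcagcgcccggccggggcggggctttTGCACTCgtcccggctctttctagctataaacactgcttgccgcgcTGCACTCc
MT1X: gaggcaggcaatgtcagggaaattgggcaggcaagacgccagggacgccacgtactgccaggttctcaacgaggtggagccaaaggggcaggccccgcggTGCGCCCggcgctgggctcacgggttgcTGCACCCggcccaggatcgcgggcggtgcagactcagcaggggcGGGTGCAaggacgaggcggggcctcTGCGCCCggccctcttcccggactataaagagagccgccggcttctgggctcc
MT1H: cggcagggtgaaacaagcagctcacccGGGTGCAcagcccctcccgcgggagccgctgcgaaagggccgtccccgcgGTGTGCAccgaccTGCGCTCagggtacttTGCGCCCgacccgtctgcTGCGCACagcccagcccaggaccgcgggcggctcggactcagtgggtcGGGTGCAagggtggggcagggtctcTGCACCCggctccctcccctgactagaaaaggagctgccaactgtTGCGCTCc
SLC30A1: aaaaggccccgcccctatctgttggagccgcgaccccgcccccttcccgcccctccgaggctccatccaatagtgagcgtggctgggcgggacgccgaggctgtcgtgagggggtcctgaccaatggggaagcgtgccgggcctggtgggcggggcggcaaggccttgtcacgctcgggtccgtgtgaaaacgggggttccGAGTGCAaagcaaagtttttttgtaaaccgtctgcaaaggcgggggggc

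The MT2A window held 7 matches, the MT1X window 4 and the MT1H window 8. SLC30A1 had 1 match, 43 to 49 bases before its start. In MT1X and in MT1H, matches lay at the same places, 47 to 53 and 72 to 78 bases before the start, and MT2A had one at 48 to 54. The window of MTF1 and both windows of SLC39A10 held 0 matches to these letters. The SLC39A10 windows begin at 195656708 and 195656976, inside the gene span given above, so the bases before that span were not searched. Of 35116 promoter windows of this length, 24.8% held at least 1 match, 1.05% at least 3 and 0.208% at least 4. The metallothionein windows were rich in G and C, with 73.2% in MT2A, and among 7287 windows with at least 70% G and C, 0.659% held at least 4 matches. A match describes the letters and is no measure of binding. MT1E, MT1F, MT1G and MT1M are not shown.

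Values are log2 GCRMA signals, so a difference of 1 is a doubling of signal, written here as a log2 fold change. Each gene is given by its brightest probe set. Of the 11 metallothionein probe sets, 9 end in _x_at, which marks probes that can bind transcripts of several family members, so their values share signal and are not separate measurements of each gene. MT1M (probe set 217546_at) had the only metallothionein probe set without this mark that was bright enough to be tested. The mark stands on the brightest probe set of MT1E (212859_x_at), MT1F (217165_x_at), MT1G (204745_x_at), MT1H (206461_x_at), MT1X (208581_x_at) and MT2A (212185_x_at). Of the 18 probe sets, 16 passed the level set for testing, 4 on the log2 scale on 3 or more arrays. The others were 210472_at of MT1G and 242716_at of SLC30A1.

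The array medians ran from 2.85 to 2.94 and the arrays are few, so precision is limited: the 95% interval for Fk against control at 48 h reached a median of 0.447 to either side of the estimate over all genes. Of the markers checked, 8 of 8 epithelial genes were tested, while 0 of 8 proximal tubule genes reached the level for testing, the highest value being 4.14 for GGT1. Array Fk_12h replicate 3 stood apart. Against the mean of its group's other arrays, 569 genes were over 1 higher and 1091 over 1 lower on it, and its 28S ribosomal RNA control read 14.38, against 8.50 to 10.29 on the other arrays. The 7 metallothioneins deviated little on it, by -0.18 to -0.04, whereas SLC30A1 deviated by -0.71 and MTF1 by 0.79. HSPA6, a heat shock gene that heavy metals and heat switch on, read 7.31 there, against 2.97 and 2.79 on the other Fk arrays at 12 h; it was named after its values were seen, and was not tested. Where leaving out this array ends a call or moves a named value by over 1.5 times, the value without it is given, and for single probe sets and related genes this was chosen after seeing the data.

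At 48 h, signals for all 7 metallothioneins were on average higher in Fk cultures than in control cultures, but the arrays of the groups overlapped for each of them and 0 of the 10 genes passed the test. MT2A, the main metallothionein gene of many human cells, read 13.17, 13.73 and 14.37 in Fk cultures at 48 h, and 13.13, 13.00 and 14.06 in control cultures at 48 h. Replicate 3 was the highest array in both groups, and the lowest Fk array lay within the control range. The log2 fold change was 0.36 with a 95% interval from -0.34 to 1.06 (limma, adjusted p = 0.999939). MT1X read 12.14, 12.89 and 13.59 in Fk cultures, and 11.95, 11.75 and 13.15 in control cultures. Again replicate 3 was the highest of each group and the groups overlapped, with a log2 fold change of 0.59 and an interval from -0.27 to 1.46. Neither a fall nor a doubling of MT1X is outside that interval, which came from a fit without the replicate number. With the replicate number as a block within each time, the interval ran from 0.11 to 1.07, and MT1X did not pass (limma, adjusted p = 0.453). The other MT1X probe set, 204326_x_at, had a log2 fold change of 0.69 in the fit without the block, with an interval from -0.14 to 1.52.

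MT1M, whose probe set does not carry the _x_at mark, read 8.08, 9.02 and 9.71 in Fk cultures at 48 h, and 7.98, 8.30 and 9.46 in control cultures at 48 h. It had the same order of replicates in both groups, and its log2 fold change was 0.35, with an interval from -0.57 to 1.28. Over the 7 metallothioneins, the log2 fold changes ran from 0.33 for MT1F to 0.59 for MT1X with a median of 0.44, beside a median of 0.018 over all genes tested. These genes share probes and arrays, so their common sign is not 7 separate observations. By limma, 0% of all genes passed at 48 h and 10.2% had arrays that did not overlap between Fk and control, against 0 of the 10 genes on both counts. At an unadjusted p under 0.05 there were also 0 of the 10, beside 5.18% of all genes.

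The 48 h value of the family rested on which arrays were in the fit. Over the fits that left out 1 array, the lowest values were 0.24 for MT1X, 0.16 for MT1E, 0.14 for MT1G, 0.080 for MT1H and 0.052 for MT2A, all above 0. With Fk_48h replicate 3 left out, MT1M stood at -0.032 and MT1F at -0.10. With control_48h replicate 3 left out, MT1M stood at 0.80 and MT1F at 0.71. None of the 10 genes passed at 48 h in any of these fits.

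**Figure D1:**
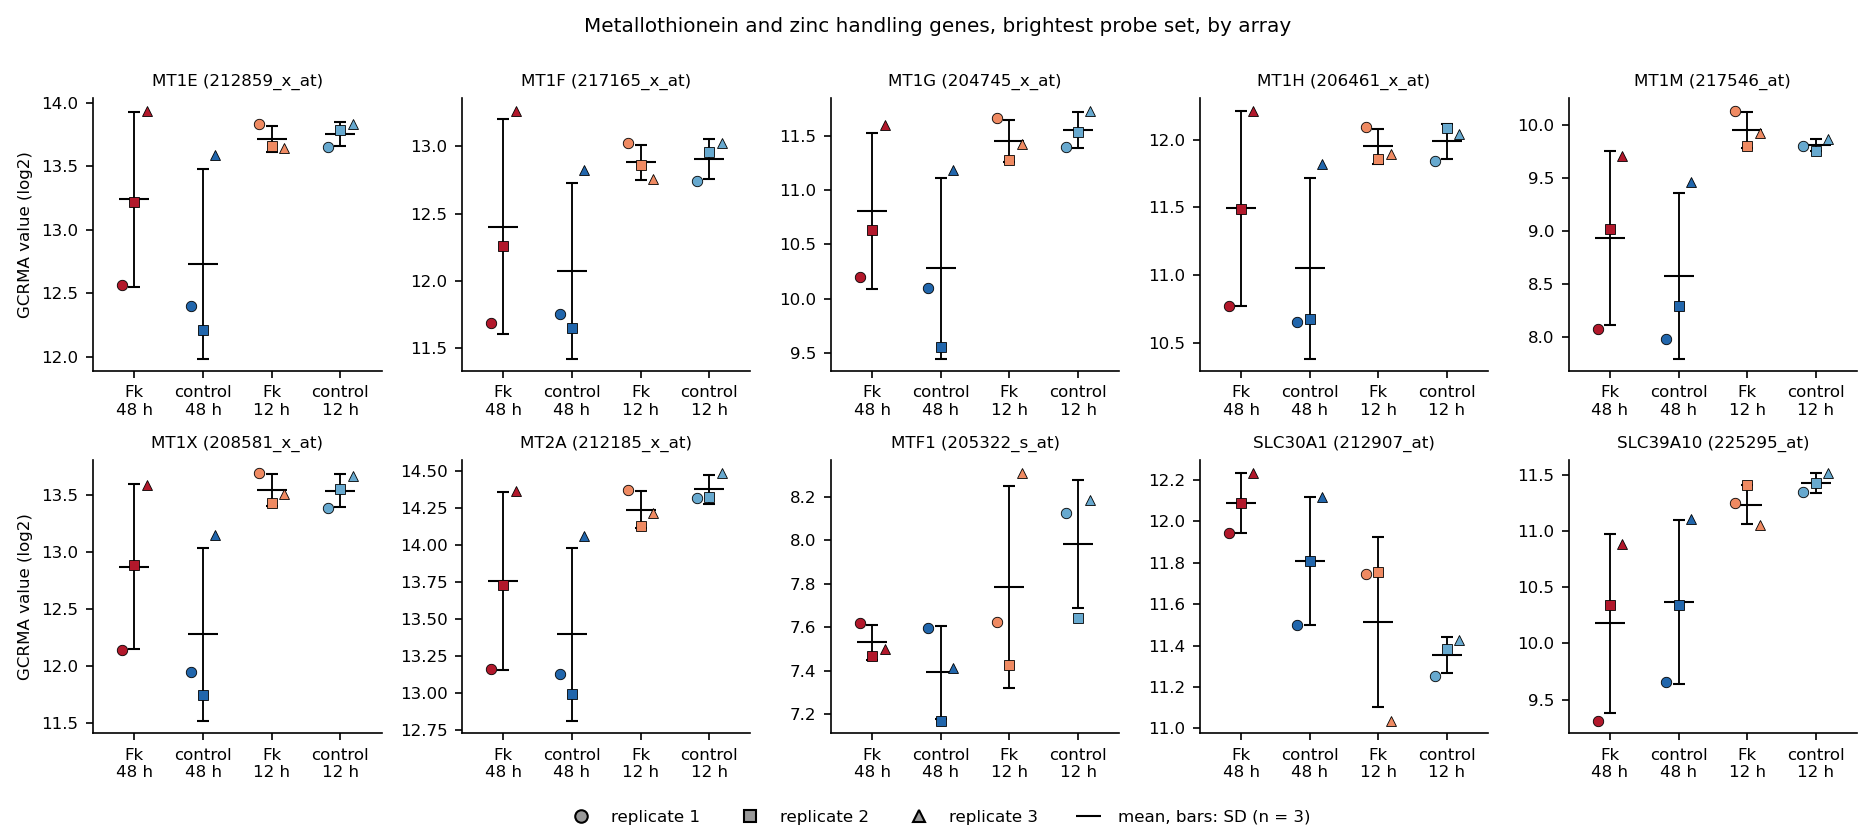
Log2 GCRMA value (vertical axis, a separate scale for each gene) of the brightest probe set of each of the 10 genes on all 12 arrays, by group. Points are arrays, with symbols for the replicate number, and bars show the mean and SD (n = 3). The 12 h arrays of each metallothionein lie close together, while the 48 h arrays spread widely with replicate 3 highest in both the Fk and the control group.

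The zinc carriers and the zinc sensor did not pass at 48 h either. SLC30A1, the zinc exporter, read 11.94, 12.09 and 12.23 in Fk cultures at 48 h, and 11.50, 11.81 and 12.12 in control cultures at 48 h. The Fk values were higher on average and overlapped the control values, with a log2 fold change of 0.28 and an interval from -0.19 to 0.75. A second probe set of SLC30A1, 228181_at, gave 0.27. SLC39A10, the zinc importer, read 9.31, 10.34 and 10.88 in Fk cultures, and 9.65, 10.34 and 11.11 in control cultures. The groups overlapped almost fully, and the log2 fold change was -0.19 with an interval from -1.08 to 0.70. MTF1 read 7.62, 7.47 and 7.50 in Fk cultures, and 7.60, 7.17 and 7.41 in control cultures. Its log2 fold change was 0.14 with an interval from -0.37 to 0.65. Its probe set 227150_at gave 0.25 and 205323_s_at -0.12, so the sign depended on the probe set.

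At 12 h the metallothionein signals of Fk and control cultures were close. MT2A read 14.38, 14.13 and 14.22 in Fk cultures at 12 h, and 14.32, 14.33 and 14.49 in control cultures at 12 h, a log2 fold change of -0.14 with an interval from -0.84 to 0.56. MT1X read 13.69, 13.43 and 13.50 in Fk cultures, and 13.38, 13.55 and 13.67 in control cultures. Its log2 fold change was 0.0074, or 0.026 without Fk_12h replicate 3. The other MT1X probe set, 204326_x_at, gave 0.28 with an interval from -0.55 to 1.11, or 0.39 without that array. MT1M read 10.13, 9.80 and 9.93 in Fk cultures, and 9.80, 9.76 and 9.87 in control cultures, for a log2 fold change of 0.14. All 7 metallothioneins had overlapping arrays, and their log2 fold changes ran from -0.14 to 0.14 with a median of -0.037, beside 0.015 over all genes. By limma, 0 of the 10 genes passed at 12 h and 0% of all genes did. At an unadjusted p under 0.05 there were 0 of the 10 and 6.71% of all genes, and the arrays did not overlap for 0 of the 10 and 16.4% of all genes. The fit shares 1 estimate of spread over both times, while the pooled SD of the metallothioneins was 0.59 to 0.80 at 48 h and 0.099 to 0.18 at 12 h. Their intervals at 12 h are therefore wider than the 12 h arrays alone show. Those given above for Fk against control at 48 h are narrower than the 48 h arrays alone show.

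SLC30A1 had a positive average difference on both of its tested probe sets at 12 h, and both values moved with Fk_12h replicate 3, in opposite directions. On the brightest, 212907_at, it read 11.75, 11.75 and 11.04 in Fk cultures at 12 h, and 11.25, 11.38 and 11.43 in control cultures at 12 h. Replicates 1 and 2 lay above every control array and replicate 3 below, and the log2 fold change was 0.16 (limma, adjusted p = 0.897). Without Fk_12h replicate 3 it was 0.40, with an interval from 0.014 to 0.78 (limma, unadjusted p = 0.0436 and adjusted p = 0.611), still short of the threshold. On 228181_at the same arrays read 9.42, 9.54 and 10.92 in Fk cultures, and 8.63, 8.68 and 8.92 in control cultures. Here every Fk array lay above every control array, and replicate 3 was the highest instead of the lowest. The log2 fold change of this probe set was 1.21 with an interval from 0.43 to 2.00 (limma over probe sets, adjusted p = 0.668), so it did not pass. Without Fk_12h replicate 3 it was 0.74, with an interval from 0.23 to 1.24 (limma over probe sets, adjusted p = 0.486).

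MTF1 also differed between its probe sets on that array. On 205322_s_at, the brightest, it read 7.62, 7.43 and 8.31 in Fk cultures at 12 h, and 8.12, 7.64 and 8.18 in control cultures at 12 h, a log2 fold change of -0.20, or -0.46 without Fk_12h replicate 3 (limma, adjusted p = 0.582). On 227150_at it read 7.35, 7.52 and 6.24 in Fk cultures, and 7.38, 7.36 and 7.36 in control cultures. Replicate 3 was the highest Fk array at 12 h on 205322_s_at and the lowest on this probe set, whose difference was -0.33, or 0.066 without that array. On 205323_s_at it read 5.47, 5.53 and 5.06 in Fk cultures, and 5.71, 6.04 and 6.19 in control cultures, with every Fk array below every control array. That difference was -0.63 with an interval from -1.02 to -0.23 (limma over probe sets, adjusted p = 0.656). SLC39A10 read 11.24, 11.40 and 11.05 in Fk cultures, and 11.34, 11.42 and 11.52 in control cultures. The arrays overlapped and the log2 fold change was -0.19, or -0.10 without Fk_12h replicate 3.

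**Figure D2:**
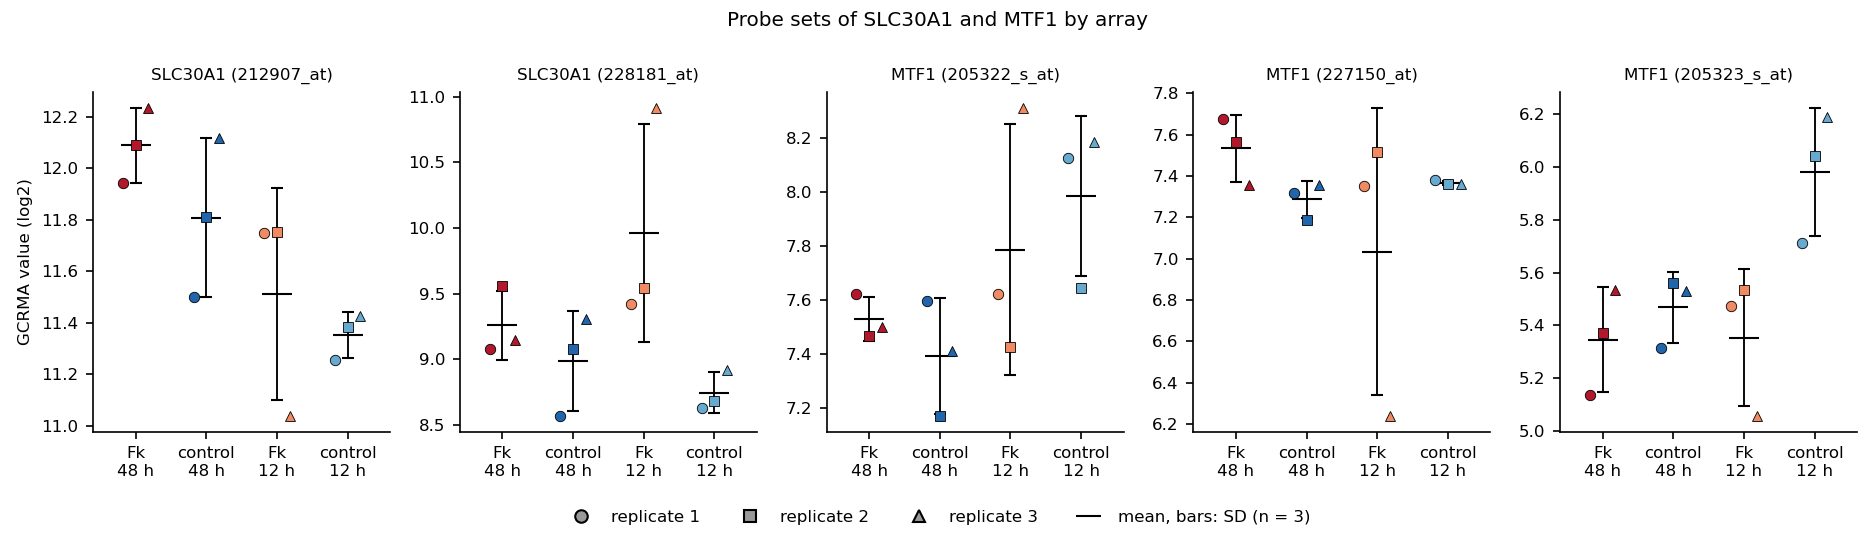
Log2 GCRMA value (vertical axis, a separate scale for each probe set) of the probe sets of SLC30A1 and MTF1 that passed the level for testing, on all 12 arrays. Points are arrays, with symbols for the replicate number, and bars show the mean and SD (n = 3). Fk_12h replicate 3 is the lowest array of SLC30A1 on 212907_at (11.04) and the highest on 228181_at (10.92).

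Over both times together, 0 of the 10 genes passed for the mean of the Fk effects, beside 0.00927% of all genes, and 0 of the 10 had an unadjusted p under 0.05, beside 7.94%. The values ran from -0.19 for SLC39A10 to 0.30 for MT1X, with 0.22 for SLC30A1 (interval from -0.11 to 0.55), or 0.34 without Fk_12h replicate 3 (interval from 0.082 to 0.59; limma, adjusted p = 0.287). On 228181_at, SLC30A1 had 0.74 (interval from 0.19 to 1.30; limma over probe sets, adjusted p = 0.462), or 0.50 without that array. MTF1 had -0.030, or -0.16 without that array. On 205323_s_at, MTF1 had -0.37 (interval from -0.65 to -0.097; limma over probe sets, adjusted p = 0.457), or -0.30 without that array. On 227150_at it had -0.043, or 0.16 without that array. With weights for array quality, SLC30A1 stood at 0.35 and passed (limma, adjusted p = 0.039), 1 of the 10 genes, where 527 of all genes passed. The Fk effect at 48 h minus that at 12 h was positive for all 7 metallothioneins, 0.21 to 0.63, and 0 of the 10 genes and 0% of all genes passed. At an unadjusted p under 0.05 there were 0 of the 10, beside 3.31%. For MT1X it was 0.59 with an interval from -0.64 to 1.81 (limma, adjusted p = 0.996), so the Fk effect on the family was not shown to differ between the times.

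In control cultures, the metallothionein signals were about 1 log2 unit lower at 48 h than at 12 h, and MT1X and MT2A fell past the threshold of an adjusted p of 0.05. MT2A read 13.13, 13.00 and 14.06 at 48 h, and 14.32, 14.33 and 14.49 at 12 h. Every 48 h array lay below every 12 h array, replicate 3 by the least. MT2A fell by 0.98, with an interval from -1.68 to -0.28 (limma, adjusted p = 0.0498). MT1X read 11.95, 11.75 and 13.15 at 48 h, and 13.38, 13.55 and 13.67 at 12 h, also without overlap. It fell by 1.25, with an interval from -2.12 to -0.39 (limma, adjusted p = 0.0436), to 0.419 of its 12 h signal. MT1M read 7.98, 8.30 and 9.46 at 48 h, and 9.80, 9.76 and 9.87 at 12 h, again without overlap. Its log2 fold change was -1.23 and did not pass (limma, adjusted p = 0.0594).

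The other metallothioneins did not pass. MT1G stood just outside the threshold at -1.28 (limma, adjusted p = 0.0502), and MT1E had -1.02 (0.0762), MT1H -0.93 (0.093) and MT1F -0.83 (0.145), and the median over the 7 was -1.02, beside 0.011 over all genes. The arrays did not overlap for 6 of the 7, all but MT1F. On probe sets, MT1X passed on 204326_x_at, at -1.22 (limma over probe sets, adjusted p = 0.0479), and not on 208581_x_at, at -1.25 (0.0504). MT2A did not pass in that fit (212185_x_at, -0.98, adjusted p = 0.0575). As the RNA came from whole cultures, fewer cells of a type and less RNA per cell cannot be told apart.

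The importer gene had a negative value like the metallothioneins and the exporter gene a positive one, and neither passed in the fit on all arrays. SLC39A10 read 9.65, 10.34 and 11.11 in control cultures at 48 h, and 11.34, 11.42 and 11.52 at 12 h, without overlap, a log2 fold change of -1.06 (limma, adjusted p = 0.0842). SLC30A1 read 11.50, 11.81 and 12.12 at 48 h, and 11.25, 11.38 and 11.43 at 12 h, with every 48 h array higher. That was a log2 fold change of 0.45 (limma, adjusted p = 0.149). On its probe set 228181_at the arrays overlapped, and the value was 0.24 (limma over probe sets, adjusted p = 0.684). MTF1 read 7.60, 7.17 and 7.41 at 48 h, and 8.12, 7.64 and 8.18 at 12 h, without overlap, a log2 fold change of -0.59 (limma, adjusted p = 0.0908). Its probe set 227150_at gave -0.079 and 205323_s_at -0.51, so the size depended on the probe set. Without Fk_12h replicate 3, SLC30A1 and MTF1 kept their values on the brightest probe sets and passed (limma, adjusted p = 0.0466 and 0.0229).

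Of the 10 genes, 2 passed as lower in control cultures at 48 h, beside 10.9% of all genes, and 0 as higher, beside 10.6%. In either direction 21.5% of all genes passed, so a share of 2 in 10 is close to the background. At an unadjusted p under 0.05 there were 8 of the 10, beside 36.4% of all genes. Arrays did not overlap for 8 of the 10 genes on the lower side, beside 24.9% of all genes, and for SLC30A1 on the higher side, beside 25.1%. As the metallothioneins share probes and arrays, neither share of 8 in 10 is made of separate observations. The calls rested on single arrays. The count was 0 without any 1 of Fk_12h replicates 1 and 2, Fk_48h replicate 2, control_12h replicates 1, 2 and 3 and control_48h replicates 1 and 2, it was 5 without Fk_12h replicate 3, Fk_48h replicate 1 or Fk_48h replicate 3, and it was 8 without control_48h replicate 3. Every one of these fits kept a negative value for all 7 metallothioneins, and the log2 fold change of MT1X ran from -1.69 to -0.99. The 5 genes that passed without Fk_12h replicate 3 were MT1G, MT1X, MT2A, MTF1 and SLC30A1, the last as higher. With weights for array quality all 10 genes passed, where 4920 of the 10784 genes tested did.

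In Fk cultures the metallothioneins also had negative values at 48 h against 12 h, and 0 of the 10 genes passed by limma, beside 23.2% of all genes. MT2A read 13.17, 13.73 and 14.37 at 48 h, and 14.38, 14.13 and 14.22 at 12 h. Replicate 3 at 48 h lay inside the 12 h range, the others below it, and the log2 fold change was -0.48 with an interval from -1.18 to 0.21 (limma, adjusted p = 0.288). MT1X, at 12.14, 12.89 and 13.59 at 48 h and 13.69, 13.43 and 13.50 at 12 h, had -0.67 (limma, adjusted p = 0.236). MT1M read 8.08, 9.02 and 9.71 at 48 h, and 10.13, 9.80 and 9.93 at 12 h, without overlap, a log2 fold change of -1.02 (limma, adjusted p = 0.102). The 7 metallothioneins ran from -1.02 to -0.46 with a median of -0.48, beside 0.018 over all genes.

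SLC39A10 read 9.31, 10.34 and 10.88 in Fk cultures at 48 h, and 11.24, 11.40 and 11.05 at 12 h, without overlap, a log2 fold change of -1.05 (limma, adjusted p = 0.0814). SLC30A1 read 11.94, 12.09 and 12.23 at 48 h, and 11.75, 11.75 and 11.04 at 12 h, with every 48 h array higher, a log2 fold change of 0.58 (limma, adjusted p = 0.0732). Without Fk_12h replicate 3 it was 0.34. On 228181_at it had -0.70, or -0.22 without that array, so its direction differed between the probe sets with and without it. MTF1 had -0.26 on its brightest probe set (limma, adjusted p = 0.440), or 0.0053 without Fk_12h replicate 3. On 227150_at MTF1 had 0.50, or 0.10 without that array, and on 205323_s_at -0.0075, or -0.16 without it. Its direction thus depended on the probe set. Arrays did not overlap for MT1M and SLC39A10 on the lower side, 2 of the 10 genes beside 19.7% of all genes, and for SLC30A1 on the higher side, beside 19%. At an unadjusted p under 0.05 there were 3 of the 10, beside 37.7% of all genes. The difference between the Fk and the control time courses is the difference of the Fk effects given above, which did not pass for any of the 10 genes. Both time courses share arrays with the Fk comparisons, so their values are not separate evidence.

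**Figure D3:**
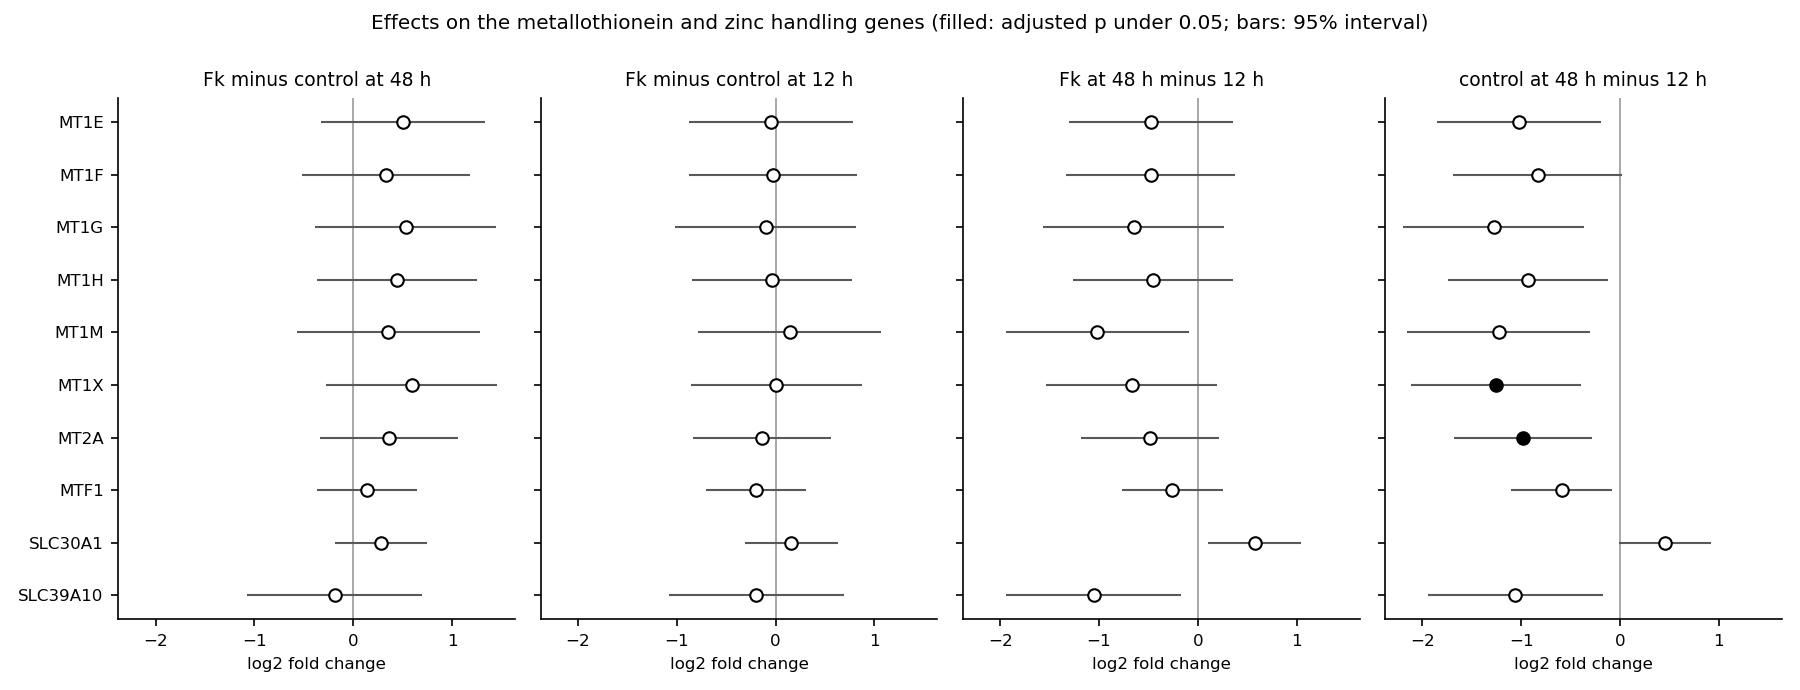
Log2 fold changes (horizontal axis) of the 10 genes for Fk against control (48 h, then 12 h) and for 48 h against 12 h (Fk cultures, then control cultures). Points are limma estimates, bars their 95% intervals, and filled points passed at an adjusted p under 0.05. Of these points, those of MT1X and MT2A in control cultures are filled, and SLC30A1 lies right of 0 in all 4 panels.

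The spread between replicates was itself uneven. MT2A averaged 13.76 ± 0.60 in Fk cultures at 48 h, 13.40 ± 0.58 in control cultures at 48 h, 14.24 ± 0.12 in Fk cultures at 12 h and 14.38 ± 0.10 in control cultures at 12 h (SD, n = 3 each). SLC30A1 averaged 12.09 ± 0.15, 11.81 ± 0.31, 11.51 ± 0.41 and 11.35 ± 0.09 in the same groups, so the order of its group means ran opposite to that of MT2A for time. At 48 h the pooled SD of the Fk and control groups was 0.59 for MT2A, 0.74 for MT1X, 0.80 for MT1M and 0.76 for SLC39A10, against a median of 0.23 over all genes, and 92.2% to 97.1% of genes had a smaller one than the metallothioneins. At 12 h it was 0.11 for MT2A and 0.14 for MT1X, under the median of 0.21 over all genes. SLC30A1 (0.24 at 48 h and 0.30 at 12 h) and MTF1 (0.16 and 0.39) did not share this: their larger spread was at 12 h, where Fk_12h replicate 3 stood apart.

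Within groups the metallothioneins moved together. Deviations of the 12 arrays from their group means correlated at 0.896 to 0.997 (Pearson r) over the 21 pairs of metallothioneins. MT1M correlated with the 6 genes on _x_at probe sets at 0.896 to 0.979, and so followed them without that mark. Of MT2A with the other 6, r ran from 0.969 to 0.996 and Spearman's rho from 0.909 to 0.972, and without Fk_48h replicate 3 and control_48h replicate 3, the arrays farthest from the median, r ran from 0.915 to 0.989. SLC39A10 had r = 0.874 and rho = 0.741 with MT2A, and r = 0.713 without those 2 arrays. SLC30A1 had r = 0.534 with MT2A and r = 0.305 without those arrays, and MTF1 had r = 0.012. These values describe 12 arrays in 4 groups that share processing, mostly the 6 arrays at 48 h where the spread was wide, and the genes share probes. They were not set beside those of other genes, so a high r was not shown to be particular to the family. For values instead of deviations, PRDX1, which is not a metallothionein gene, had r = 0.976 with MT2A, and MT1M had 0.969.

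**Figure D4:**
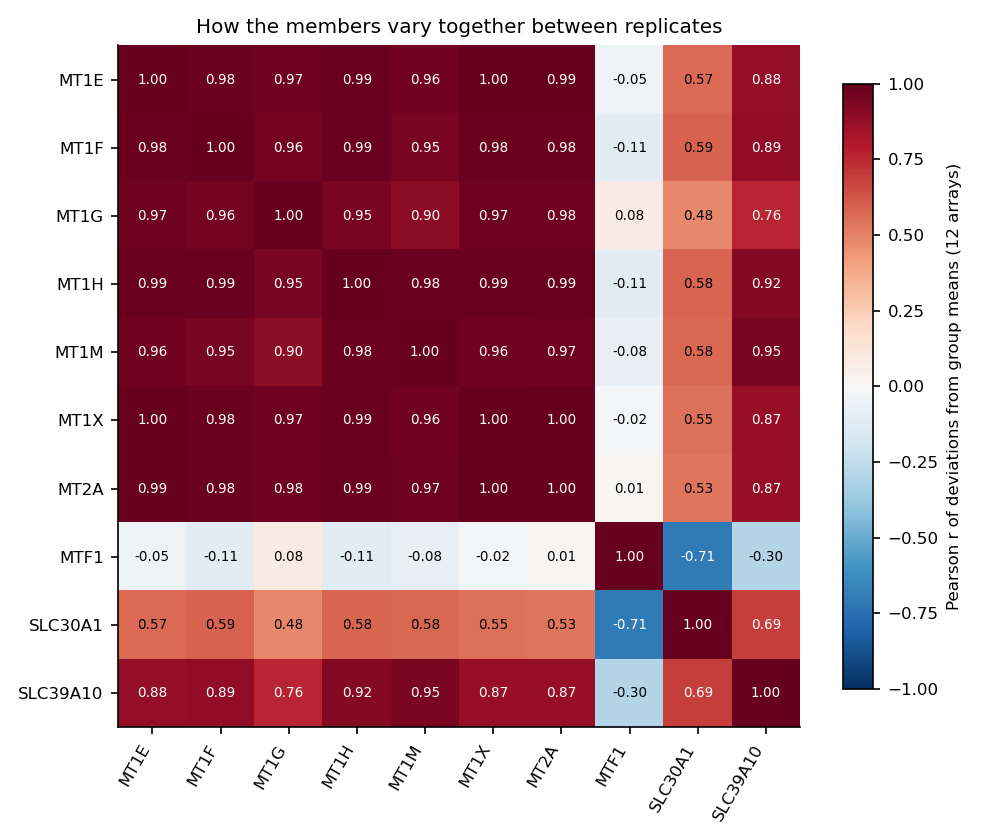
Pearson r between the deviations from group means of each pair of the 10 genes, over 12 arrays, as colour and number. The 7 metallothioneins form a block of values of 0.90 and above, SLC39A10 lies at 0.76 to 0.95 with them, and MTF1 at -0.11 to 0.08.

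Markers of other cell types were read on the same arrays. Of 4 fibroblast genes 3 were tested, and PDGFRA did not pass 2.82 on any array. LUM, a matrix proteoglycan gene, read 7.90, 9.09 and 9.80 in Fk cultures at 48 h, and 8.19, 9.25 and 9.96 in control cultures at 48 h, lowest in replicate 1 and highest in replicate 3 in both groups. DCN, another proteoglycan gene, read 8.64, 10.07 and 9.94 in Fk cultures, and 8.04, 8.95 and 9.71 in control cultures, also lowest in replicate 1 but highest in replicate 2 of the Fk cultures. COL1A1, a collagen gene, ran the other way, at 7.997, 7.72 and 7.41 in Fk cultures, and 8.01, 7.92 and 7.76 in control cultures, highest in replicate 1 and lowest in replicate 3. The summed signal of the 4 markers ran on the log2 scale from 9.82 in replicate 1 to 11.0002 in replicate 3 of the Fk cultures at 48 h, 9.68 in replicate 1 to 11.01 in replicate 3 of the control cultures at 48 h, 10.76 to 11.10 in Fk cultures at 12 h and 10.21 to 10.86 in control cultures at 12 h. Their part in the metallothionein differences was not tested. Of 3 endothelial markers, VWF and CDH5 did not exceed 2.40 on any array, and PECAM1 was tested, with 4.59 as its highest value and -0.55 in Fk cultures at 48 h against 12 h (limma, adjusted p = 0.0565). The leukocyte marker PTPRC did not exceed 3.06.

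Among all other genes tested, the pattern over the 12 arrays most like that of MT2A was that of MT1HL1, a further metallothionein gene on an _x_at probe set, at r = 0.994. PRDX1, which encodes a peroxiredoxin, followed at 0.976, SLN, which encodes sarcolipin, at 0.971, BID, a cell death gene, at 0.968, and H2AZ2, a histone variant gene, at 0.967. For MT1X they were MT1HL1 (0.988), LRRC20 (0.977), SLN (0.974), SAPCD2 (0.971) and PRDX1 (0.970). For SLC30A1 the nearest were TBC1D9 (0.956), the integrin gene ITGB1 (0.933), CELSR1 (0.930), the phosphatase gene CDC25B (0.930) and ZCCHC14 (0.927). These are the highest values among the genes tested, over 12 arrays that differ by time and share processing, and are given as a description.

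The rest of the zinc machinery was read from lists of related genes. Of the other metallothionein genes, MT1HL1 was tested, and MT3 and MT4 did not exceed 2.77 and 2.30 on any array. MT1HL1 had -0.93 in control cultures at 48 h against 12 h (limma, adjusted p = 0.0745), -0.52 in Fk cultures, and 0.32 for Fk minus control at 48 h, and 0 of these passed. For the Fk effect at 48 h and at 12 h, 0 members of any list passed. Among 7 other SLC30 exporters tested, the smallest p at 48 h was that of TMEM163, at a log2 fold change of -0.28, and at 12 h that of SLC30A5, which loads zinc into the secretory pathway, at 0.44 (limma, adjusted p = 0.739). Among 10 other SLC39 importers it was that of SLC39A1 at 48 h, at -0.23, and that of SLC39A9 at 12 h, at 0.23.

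Over time some of the other transporters changed. In control cultures at 48 h against 12 h, 2 of 7 other exporters rose and 0 fell, and 2 of 10 other importers rose and 1 fell, beside 10.6% of all genes that rose and 10.9% that fell. SLC39A14, an importer of zinc, iron and manganese, read 13.27, 12.87 and 11.49 in control cultures at 48 h, and 11.10, 10.95 and 10.83 at 12 h. Every 48 h array was higher and replicate 3 was nearest to the 12 h arrays, and SLC39A14 rose by 1.58 (limma, adjusted p = 0.0288). SLC39A11, a ZIP importer of internal membranes, rose by 2.28 (limma, adjusted p = 9.29e-04), while SLC39A3, a plasma membrane importer, fell by 0.51 (limma, adjusted p = 0.0242). Of the exporters, SLC30A4, which fills vesicles with zinc, rose by 1.11 and SLC30A5 by 0.62.

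In Fk cultures at 48 h against 12 h, 0 of the 7 other exporters and 3 of the 10 other importers rose, and 0 of either fell, beside 11.5% of all genes that rose and 11.7% that fell. SLC39A11 rose by 2.41, SLC39A14 by 1.34 and SLC39A13, an importer of the secretory pathway, by 0.41 (limma, adjusted p = 6.76e-04, 0.0492 and 0.0317). Without Fk_12h replicate 3, SLC39A14 stood at 1.28 and did not pass (limma, adjusted p = 0.091). Among the exporters the smallest p was that of SLC30A7, at 1.38 (limma, adjusted p = 0.123), or 0.62 without that array. The difference of the Fk effects between the times did not pass for any of these genes, so the exporter counts of the time courses were not shown to differ.

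**Figure D5:**
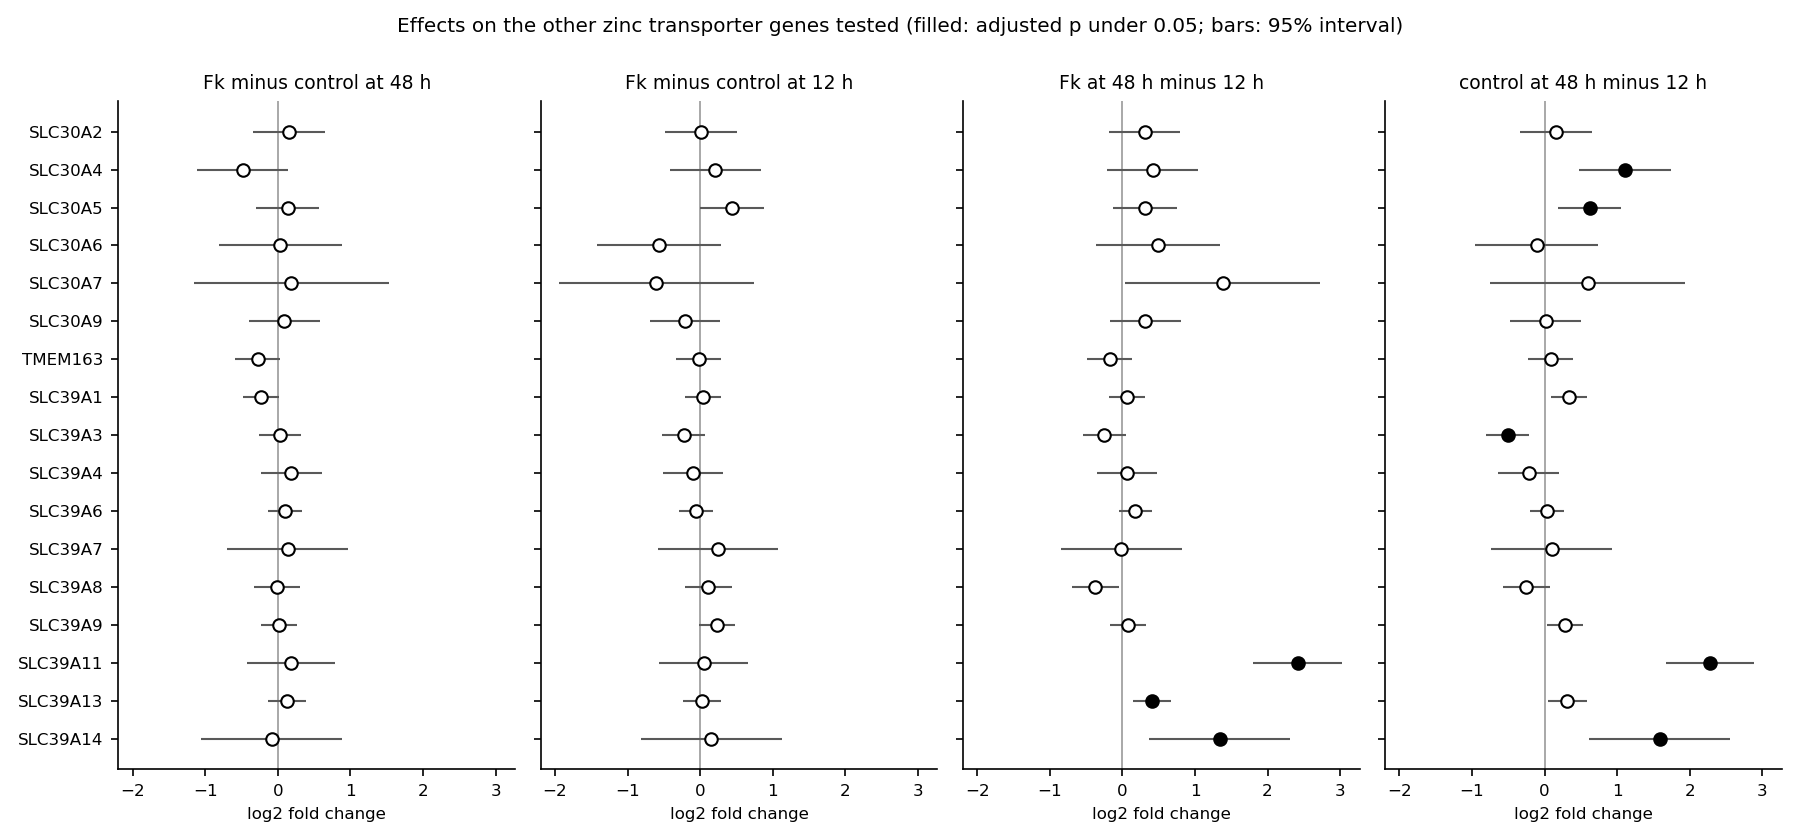
Log2 fold changes (horizontal axis) of the 17 other zinc transporter genes tested, for Fk against control (48 h, then 12 h) and for 48 h against 12 h (Fk cultures, then control cultures). Points are limma estimates, bars their 95% intervals, and filled points passed at an adjusted p under 0.05. No point is filled for Fk against control, while SLC39A11 and SLC39A14 are filled and above 0 in both time courses.

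Lists of copper handling, heavy metal and oxidant response, and glucocorticoid-responsive genes were also read, with 8 to 10 tested genes each. Some of these genes changed over time. Their counts stand beside 10.6% of all genes that rose and 10.9% that fell in control cultures, and 11.5% and 11.7% in Fk cultures. Whether these changes share a signal with the metallothioneins was not tested. In copper handling, 1 of 10 genes rose and 1 fell in control cultures at 48 h: ATP7A, a copper pump, by 0.90, and ATOX1, the chaperone that feeds it, which fell by 1.05, a count close to the share over all genes. In Fk cultures at 48 h, 1 of 10 rose and 2 fell. STEAP2, a metal reductase gene, rose by 1.59, ATOX1 fell by 1.22 and SLC31A2, a copper transporter gene, fell by 0.91. Without Fk_12h replicate 3, STEAP2 stood at 1.32 and did not pass (limma, adjusted p = 0.0907). In the heavy metal and oxidant response, 2 of 10 genes rose and 3 fell in control cultures. SLC7A11, the cystine importer gene, rose by 3.91 and GCLC, of glutathione synthesis, by 0.84, while the chaperone gene DNAJB1 fell by 1.03 and the selenoprotein gene SELENOW fell by 0.69. In Fk cultures 1 rose and 3 fell: SLC7A11 rose by 2.77, DNAJB1 fell by 1.49, SELENOW fell by 0.86 and GCLM, the partner of GCLC, fell by 0.85.

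Of 8 glucocorticoid-responsive genes tested, 1 rose and 1 fell in control cultures at 48 h, again close to the share over all genes. TSC22D3, which encodes GILZ, rose by 1.73 and the kinase gene SGK1 fell by 2.04. In Fk cultures at 48 h, ERRFI1, a feedback inhibitor of the EGF receptor, rose by 0.97 and GLUL, glutamine synthetase, fell by 0.99. Without Fk_12h replicate 3, TSC22D3 also passed there, at 1.15 (limma, adjusted p = 0.0156), against 0.72 with it (0.169). For Fk against control at 12 h, TSC22D3 had 1.12 and SGK1 -1.29 (limma, adjusted p = 0.654 and 0.759), or 0.69 and -0.45 without Fk_12h replicate 3, and at 48 h ERRFI1 had 0.43 (limma, adjusted p = 0.958), and 0 passed.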

How the data were processed

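RNA of HK-2 cultures was measured on 12 Affymetrix arrays, 3 in each of 4 groups. The deposited values are log2 GCRMA values per probe set, made by the authors per the submitters' processing notes, with the log2 scale read from their range. The GCRMA version is not given in the sources used here.

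Of 54675 probe sets, 41097 carry 1 gene symbol in the platform annotation, 1801 several and 11777 none. A gene was taken at its brightest probe set with 1 symbol, giving 19775 genes. Those at 4 or more on at least 3 arrays, 10784, were fitted by limma 3.58.1 (R 4.3.3) as 4 group means on all arrays, moderated with eBayes (2.44 prior and 8 residual degrees of freedom). The two-sided p-values were adjusted by the Benjamini-Hochberg method across every gene tested. The 21899 probe sets past the same level were fitted likewise.

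The 10 members, the related lists (other metallothioneins, SLC30 and SLC39 transporters, copper handling, heavy metal and oxidant response, glucocorticoid-responsive genes) and the marker lists were chosen with earlier results of these data known. All members are named. From each related list up to 4 genes that passed are named, or those with the smallest p, and for MT2A, MT1X and SLC30A1 the 5 genes with the most similar pattern. The fit was tested on simulated data. In all, 24 other settings were tried. Promoters were searched in Python 3.11.15, and figures drawn with matplotlib 3.10.9.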

Additional observations from a re-analysis of the deposited data

How the results depend on the processing

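For Fk against control at 48 h and at 12 h, 0 of the 10 genes passed by limma under any of 24 other settings. Of these 24, 12 left out 1 array each. The difference of these effects was fitted under 23 of the 24, and again 0 passed. With probe sets not ending in _x_at, MT1E, MT1F, MT1G, MT1H, MT1X and MT2A were not tested. For the mean of the Fk effects, 1 passed with array weights (SLC30A1) and 0 under the rest. In control cultures at 48 h against 12 h, 2 genes passed. The number was 0 with no filter on low values or with all probe sets adjusted together. It was 1 with quantile normalization, 1 with arrays centred on their median and 10 with array weights. With probe sets not ending in _x_at 0 passed, but MT1X and MT2A, the 2 genes called, were not in that fit. That setting could therefore not retest their calls. Leaving out single arrays gave 0 to 8. In Fk cultures over time 0 passed, 7 did with array weights, and 0 to 2 did without single arrays, the 2 without Fk_48h replicate 3. The number of all genes passing in the control time course was 2314, or 4920 with array weights, 3915 with all probe sets and 1063 to 3454 without single arrays. In the Fk time course it was 2500, or 5345 with weights, 4349 with all probe sets, 852 with the Fk groups alone and 1295 to 2792 without single arrays. For Fk against control it was 0 at both times, or 94 at 48 h and 156 at 12 h with array weights. At 48 h it was 4 with the mean of all probe sets and 1 with no filter, the groups compared alone or all probe sets. For the mean of the effects it was 1, or 527 with weights and 2 with the mean of all probe sets. The causes were not tested, except that settings with other features adjust over another number of tests.

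Signs turned for the following values. With the mean of all probe sets, SLC30A1 had -0.25 for the difference of the Fk effects and -0.047 in the Fk time course, and MTF1 had 0.078 in the Fk time course. SLC39A10 had -0.023 for the difference with quantile normalization and -0.0077 with centred arrays, which also gave MT1X -0.014 at 12 h. With array weights, MT1E had 0.015, MT1F 0.068 and MT1H 0.029 at 12 h, and SLC30A1 had -0.092 for the difference. Leaving out single arrays gave ranges across 0. At 48 h they ran from -0.55 to 0.24 for SLC39A10, from -0.10 to 0.71 for MT1F and from -0.032 to 0.80 for MT1M. At 12 h they ran from -0.069 to 0.074 for MT1X, from -0.11 to 0.011 for MT1H and from -0.11 to 0.035 for MT1F. For the mean they ran from -0.16 to 0.060 for MTF1, from -0.37 to 0.025 for SLC39A10, from -0.064 to 0.34 for MT1F and from -0.042 to 0.28 for MT2A. For the difference they ran from -0.12 to 0.28 for SLC30A1, from -0.35 to 0.44 for SLC39A10, from -0.074 to 0.73 for MT1F and from -0.18 to 0.65 for MT1M. In the Fk time course MTF1 ran from -0.44 to 0.0053. Its probe set 227150_at had 0.066 for Fk at 12 h without Fk_12h replicate 3, a fit chosen after seeing the data. The causes were not tested.

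Replicate numbers are shared between groups in the labels, which do not state pairs, so the main fit did not use them. Deviations of same-numbered Fk and control arrays correlated at 0.798, -0.025 and 0.606 at 48 h and at 0.041, 0.265 and 0.163 at 12 h. At 12 h all 6 arrays correlated best with their own number, and at 48 h 4 of 6 did. With the replicate number as a block over both times, 7 of the 10 genes passed in the control time course and 1 (SLC39A10) in the Fk time course. With the replicate block within each time, 0 of the 10 passed for Fk at 48 h or 12 h, and 1 of all genes passed at 12 h. At an unadjusted p under 0.05 this block gave 5 of the 10 at 48 h (MT1E, MT1G, MT1H, MT1M and MT1X, limma adjusted p of 0.453 to 0.542), beside 9.12% of all genes, where the fit without the block gave 0. The MT1X interval with the block ran from 0.11 to 1.07. The block within time was not fitted to the comparisons of 48 h with 12 h in control or in Fk cultures.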
